A study of Xenopus laevis with 10 samples.

Results

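Conjugation and antioxidant enzymes were followed here as 81 genes of 35115 in the count tables of fed and unfed Xenopus laevis tadpole intestines. The members were picked by a rule on names, with earlier results of these data known. A gene was a member where its deposited description contained glucuronosyltransferase, sulfotransferase family, glutathione S-transferase, glutathione peroxidase, glutathione reductase, glutamate-cysteine ligase, peroxiredoxin, superoxide dismutase or thioredoxin reductase. This gave 116 transcript rows, of which 1 per gene was kept. By family they were 5 UDP-glucuronosyltransferases (UGT), 16 cytosolic sulfotransferases (SULT), 14 soluble glutathione S-transferases (GST) and 6 microsomal ones (MGST). Then came 3 genes for subunits of glutamate-cysteine ligase (GCL), glutathione reductase (gsr.L), 9 glutathione peroxidases (GPX) and 8 peroxiredoxins (PRDX). Also members were 5 thioredoxin reductases (TXNRD) and 7 genes for superoxide dismutases or their copper chaperone (SOD). The other 7 were glucuronosyltransferases of glycan synthesis, which share the word in the rule but build sugar chains and do not conjugate small molecules. The rule left out genes of the same families that the tables describe otherwise, often as uncharacterized proteins.

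Messenger RNA was sequenced from whole intestinal tubes of fed and of unfed tadpoles that were raised at 19 °C. Each stage was a pool of 20 to 26 tubes, per the labels. The 5 fed libraries were taken at 10, 13 and 16 days post fertilization (dpf), and the 5 unfed libraries at the same ages. The ages of experiment 1 were 10 and 13 dpf and those of experiment 2 were 10, 13 and 16 dpf, each with 1 fed and 1 unfed library. Values in all libraries are given below in the order 10 dpf and 13 dpf of experiment 1, then 10 dpf, 13 dpf and 16 dpf of experiment 2, as CPM, which are read counts scaled to library size. For 2 libraries of experiment 1, the fed one titled 13 dpf and the unfed one titled 10 dpf, the age in the stage field differed from the title, and the title was used. The labels do not say whether libraries came from separate clutches or tanks, so p-values measure the spread between these libraries only.

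Conjugating enzymes attach a polar group to a foreign or endogenous compound so that the cell can export it. UGTs add glucuronic acid from UDP-glucuronic acid, SULTs add sulfate from the donor PAPS, and GSTs add the tripeptide glutathione. Antioxidant enzymes remove superoxide (SOD) and peroxides (GPX with glutathione, PRDX with thioredoxin), and glutathione reductase and TXNRD return their partners to the reduced state with NADPH. The intestinal epithelium, which meets compounds of the diet, is a known site of these enzymes in vertebrates.

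Gene totals per library were 7171004 to 10176994 counts. Of the 81 members, 68 were among the 23850 genes that passed a filter on low counts. The other 13 had 0 to 59 counts over all 10 libraries and were not tested. The members together held 1.41, 1.22, 1.22, 1.26 and 1.22% of the gene counts in the fed libraries, against 1, 0.978, 0.871, 0.906 and 0.82% in the unfed libraries. Every fed library lay above every unfed one in this share. The tissue label was checked on marker genes. Summed epithelial markers were at 9103 to 12476 CPM in the fed and 3941 to 10417 CPM in the unfed libraries, with 3 of 15 tested genes higher with feeding. Summed leukocyte markers were at 158 to 212 CPM in fed libraries, against 259 to 268 CPM in unfed libraries of experiment 1 and 504 to 586 CPM in those of experiment 2, and 14 of 15 were lower. Of the liver markers 2 of 15 were higher and 1 was lower. Their sums were 758 to 1452 CPM in the fed and 744 to 3206 CPM in the unfed libraries. The liver marker of highest level was tf.L, which averaged 773.7 CPM in the fed and 1424.3 CPM in the unfed libraries. The albumin gene alb.S averaged 0.1 CPM in the fed and 0 CPM in the unfed libraries. Of the smooth muscle markers 6 of 15 were higher and 2 lower, with sums of 16544 to 17860 CPM in the fed and 6444 to 9290.1 CPM in the unfed libraries of experiment 2, and of 7086 to 8788 CPM in the fed and 8211 to 11803 CPM in the unfed libraries of experiment 1. Of the red cell markers 3 of 9 were higher and none lower, with sums of 4161 to 8834.5 CPM in the fed and 527 to 4001 CPM in the unfed libraries of experiment 2, and of 1877.5 to 4090.3 CPM in the fed and 2176 to 2553 CPM in the unfed libraries of experiment 1. Exocrine pancreas markers had no call among 13, and of 4 kidney markers 1 was higher and 2 were lower. None of the marker genes of these 7 lists was at 0 in all libraries. The part of these cell types in the results was not tested, and in bulk tissue fewer cells of a type and less RNA per cell cannot be told apart.

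Over all ages, conjugation and antioxidant genes were mostly higher in fed intestines. Of 68 tested members, 35 (51.5%) were called higher at an adjusted p below 0.05 in edgeR's quasi-likelihood test with Benjamini-Hochberg adjustment over 23850 genes, where 24.8% of all tested genes were called higher. Only 3 members (4.41%) were called lower, where 25.1% of all tested genes were. The remaining 30 were not called. The median log2 fold change of the tested members was 0.56, beside -0.03 over all genes. The log2 fold change was positive for 55 of 68 members, where it was positive for 48.4% of all tested genes. Called log2 increases ran from 0.43 to 2.5, and 17 were of 1 or more. In 30 of the 35 the fed library was above the unfed one in all 5 pairs of the same age and experiment. Each of the 3 lower genes was below in all 5. The calls were made on these same libraries, so this agreement of pairs is no separate support. For the 17 and for the pairs, the shares of all genes are not given. For 23 members every fed library lay above every unfed one, and for 1 every fed library lay below. Among all tested genes 15.3% lay wholly above and 13.8% wholly below.

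**Figure D1:**
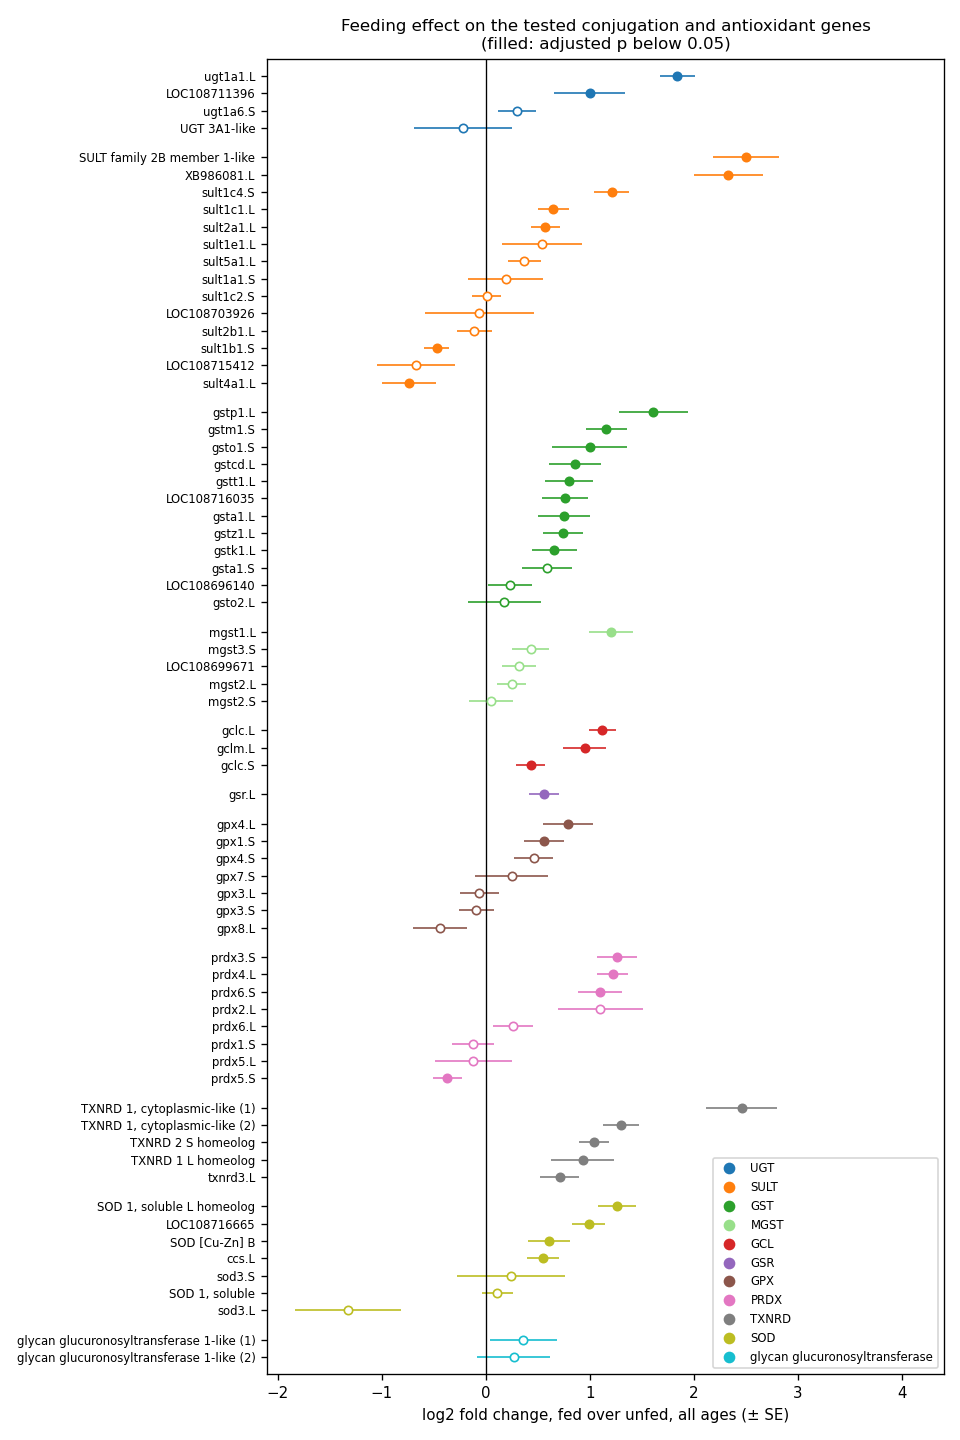
Log2 fold change, fed over unfed over all ages (x axis, with its SE), of the 68 tested members (rows), coloured by family and ordered by size within it. Filled points are the 35 called higher and the 3 called lower, and the GCL and TXNRD genes are all filled and right of 0.

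The members are short transcripts, with a median length of 1109.5 bases against 2444 bases over all tested genes. With a trend of counts on transcript length taken out of each library, 26 members were called higher and 7 lower, and their median was 0.32. The 9 higher calls lost in that fit are given with their genes below, and the 4 lower calls gained were gpx8.L, gpx3.S, prdx1.S and sod3.L. Without the replicate block, that is without the experiment as a term, 32 were called higher and 1 lower. That fit did not call gclc.S, gpx1.S, thioredoxin reductase 1 L homeolog, LOC108711396, prdx5.S or sult4a1.L. The lower calls were 1 in place of 3 without the unfed 13 dpf library of experiment 1 and without the fed 16 dpf, the unfed 13 dpf or the unfed 16 dpf library of experiment 2. Within experiment 1 alone 15 were called higher and 0 lower (median 0.43), and within experiment 2 alone 35 higher and 2 lower (median 0.69). Only experiment 2 has libraries of 16 dpf, so the fits within 1 experiment also differ in ages and number of libraries. The share of all genes called is given here for the main fit only, so the counts of the other fits cannot be set beside it.

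The family counts that follow stand beside 24.8% of all tested genes called higher and 25.1% called lower. Among the UGTs, 2 of 4 tested genes were called higher and none lower, with a family median of 0.65. The clear case was ugt1a1.L, described as UDP-glucuronosyltransferase 1-1-like, whose mammalian counterpart conjugates bilirubin. It was at 114, 158, 116, 75.0 and 84.1 CPM in the fed libraries, against 43.5, 30.4, 32.6, 25.6 and 21.5 CPM in the unfed libraries. The lowest fed library was above the highest unfed one. Its log2 fold change was 1.84 ± 0.17 (adjusted p = 2e-05), the smallest p of any member. The most abundant UGT per length was ugt1a6.S, at 83.9 ± 35.3 in fed and 67.8 ± 27.6 in unfed libraries in CPM per kilobase. In both feeding states it was higher in experiment 1 than in the same ages of experiment 2, with 268, 284, 131, 106 and 167 CPM in the fed libraries, against 236, 200.2, 144, 102 and 89.0 CPM in the unfed libraries, and its log2 fold change of 0.3 ± 0.18 (adjusted p = 0.181) was not called. LOC108711396, a UGT 2C1-like gene, was at 22.6, 22.9, 12.9, 27.1 and 15.7 CPM in the fed libraries, against 24.6, 11.3, 9.87, 6.18 and 4.69 CPM in the unfed libraries. The groups overlapped, with the unfed 10 dpf library of experiment 1 among the highest values. Its call at 1.0 ± 0.34 (adjusted p = 0.0388) was lost without any 1 library other than fed 10 dpf (experiment 1), unfed 10 dpf (experiment 1) and fed 10 dpf (experiment 2) (adjusted p up to 0.123). The UGT 3A1-like gene was low and was detected mainly in experiment 1, at 1.83 and 3.65 CPM in its fed and 3.93 and 1.87 CPM in its unfed libraries.

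Sulfotransferases split, with 5 of 14 tested genes called higher, 2 lower and a median of 0.28. Their summed level was 1083 ± 139 CPM in the fed and 618 ± 136 CPM in the unfed libraries, and every fed sum lay above every unfed one. The largest changes in the family were those of 2 of the genes described as sulfotransferase family cytosolic 2B member 1-like, a class that sulfates hydroxysteroids in mammals. XB986081.L was at 333, 369, 297, 255 and 156 CPM in the fed libraries, against 135, 41.4, 28.0, 46.6 and 43.7 CPM in the unfed libraries. The second, known by its description only, was at 71.9, 70.7, 89.8, 76.3 and 40.3 CPM in the fed libraries, against 27.6, 9.95, 6.71, 11.3 and 8.33 CPM in the unfed libraries. In both the groups did not overlap, and in both the unfed 10 dpf library of experiment 1 stood well above the other unfed libraries. Their log2 fold changes were 2.33 ± 0.33 (adjusted p = 0.000399) and 2.5 ± 0.32 (adjusted p = 0.000335). The rows move together and may share reads, since how reads that match several genes were counted is not given, so they are uncertain as 2 separate results. Of the same description, LOC108715412 was low, at 0.747 ± 0.315 CPM in the fed and 1.19 ± 0.329 CPM in the unfed libraries. It was not called, at -0.67 ± 0.37 (adjusted p = 0.154), and LOC108695914 was not tested.

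In the same family sult1c4.S, of a class that sulfates foreign phenols, was at 121, 175, 142, 142 and 175 CPM in the fed libraries, against 80.5, 61.7, 71.6, 55.8 and 57.1 CPM in the unfed libraries. No library overlapped between the groups, and the log2 fold change was 1.21 ± 0.17 (adjusted p = 0.00021). Of the SULT members, the hydroxysteroid and bile salt sulfotransferase gene sult2a1.L had the highest level per length. Its level was 229.6 ± 49.0 in fed and 154 ± 29.5 in unfed libraries in CPM per kilobase. Sulfotransferases outside the rule were not ranked. sult2a1.L was called higher at 0.57 ± 0.14 (adjusted p = 0.00643), which became 0.28 (adjusted p = 0.0895) with the length trend taken out. Its interval overlaps that of rps9.L in the gene table, so its reads are uncertain. sult1c1.L averaged 11.7 ± 1.45 CPM in the fed and 7.51 ± 1.56 CPM in the unfed libraries and was called higher at 0.65 ± 0.15 (adjusted p = 0.00416).

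Both lower SULT calls were small. sult1b1.S, of the class that sulfates phenols and thyroid hormones in mammals, was at 42.2, 39.2, 44.2, 45.9 and 42.1 CPM in the fed libraries, against 57.3, 63.5, 65.7, 62.7 and 48.6 CPM in the unfed libraries. It is the 1 member whose fed libraries all lay below the unfed ones, at a log2 fold change of -0.47 ± 0.12 (adjusted p = 0.00743). sult4a1.L, best known from brain, was at 0.61 to 3.32 CPM in the fed and 1.68 to 4.41 CPM in the unfed libraries. Its call at -0.74 ± 0.26 (adjusted p = 0.035) was lost without any 1 library other than fed 13 dpf (experiment 2) and unfed 10 dpf (experiment 2) (adjusted p up to 0.0944). Abundant SULTs without a call were sult2b1.L, at 94.3 ± 22.5 CPM in the fed and 102 ± 25.7 CPM in the unfed libraries and a log2 fold change of -0.11 ± 0.17 (adjusted p = 0.617), and sult1e1.L, at 0.54 ± 0.38 (adjusted p = 0.272).

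**Figure D2:**
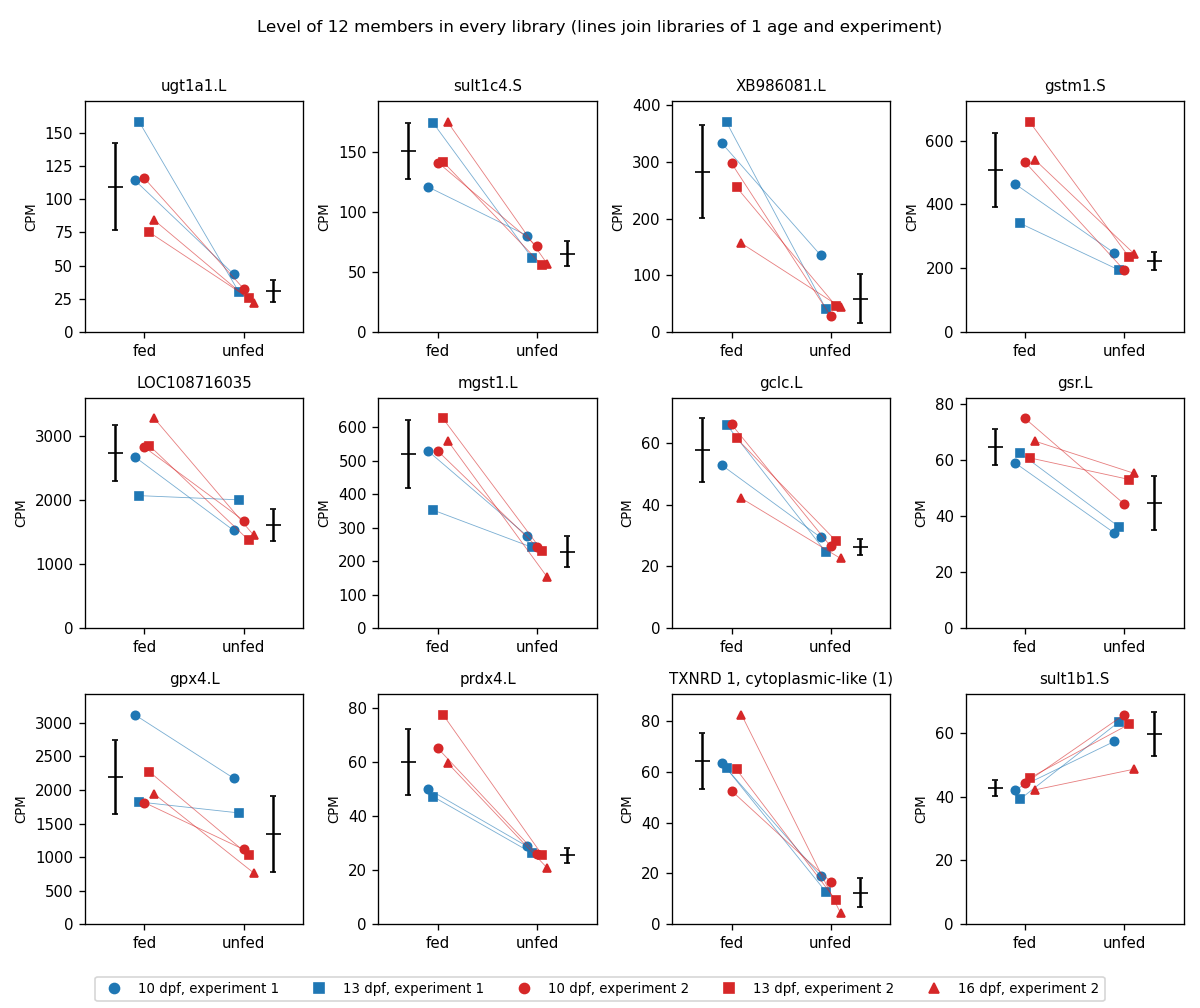
CPM (y axis, from 0) of 12 members in the 5 fed and 5 unfed libraries, with points for libraries, thin lines joining fed and unfed libraries of 1 age and experiment, and black bars for the mean ± SD. For sult1b1.S all 5 lines run up to the unfed side, and for the other 11 genes all 5 run down to it.

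Soluble glutathione S-transferases had a summed level of 5800.1 ± 863 CPM in the fed and 3318 ± 214 CPM in the unfed libraries, with every fed library above every unfed one. Of 12 tested genes 9 were called higher and none lower, with a median of 0.76. Per length, 44.1% of the family's level was LOC108716035, described as theta-1-like, which was at 2676, 2067, 2822, 2848 and 3271 CPM in the fed libraries, against 1524, 2002, 1679, 1374 and 1452 CPM in the unfed libraries. The groups did not overlap, although the experiment 1 libraries of 13 dpf were nearly level. It was called higher at 0.76 ± 0.22 (adjusted p = 0.0133), and the call was lost without fed 16 dpf (experiment 2) or without unfed 13 dpf (experiment 2) (adjusted p up to 0.0544). gstt1.L, a theta 1 gene, was at 959, 662, 771, 879 and 1038 CPM in the fed libraries, against 532, 657, 556, 436 and 322 CPM in the unfed libraries, also without overlap. Its log2 fold change was 0.8 ± 0.23 (adjusted p = 0.0138), and the call was lost without fed 16 dpf (experiment 2) (adjusted p up to 0.0505). With the length trend taken out these theta genes were at 0.45 (adjusted p = 0.0533) and 0.48 (adjusted p = 0.0787).

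The mu class gene gstm1.S was at 464, 341, 532, 657 and 539 CPM in the fed libraries, against 248, 194, 194, 234 and 245 CPM in the unfed libraries. The lowest fed library was above the highest unfed one, at a log2 fold change of 1.16 ± 0.2 (adjusted p = 0.000617). Its interval overlaps that of eps8l3.S in the gene table. gstp1.L, of the pi class, was at 492, 436, 769.5, 739.5 and 513 CPM in the fed libraries, against 96.7, 84.6, 168, 451 and 334 CPM in the unfed libraries. Fed libraries were uniformly high, while unfed libraries were lowest in experiment 1 and the unfed 13 dpf library of experiment 2 reached into the fed range. Its log2 fold change was 1.61 ± 0.33 (adjusted p = 0.00258). The zeta gene gstz1.L, which isomerizes an intermediate of tyrosine breakdown, averaged 194 ± 58.0 CPM in the fed and 117 ± 35.1 CPM in the unfed libraries at 0.74 ± 0.19 (adjusted p = 0.00719), and its interval overlaps that of LOC108698685.

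Further GST calls were lost when certain single libraries were left out, and several were not made with the length trend taken out. The kappa gene gstk1.L (log2 fold change 0.66 ± 0.22 (adjusted p = 0.0248)) lost its call without fed 13 dpf (experiment 2), fed 16 dpf (experiment 2), unfed 13 dpf (experiment 2) or without unfed 16 dpf (experiment 2) (adjusted p up to 0.0957). The alpha gene gsta1.L (0.75 ± 0.25 (adjusted p = 0.0272)) lost it without fed 10 dpf (experiment 1), unfed 13 dpf (experiment 1), fed 10 dpf (experiment 2), fed 13 dpf (experiment 2) or without unfed 10 dpf (experiment 2) (adjusted p up to 0.0926). The omega gene gsto1.S (1.0 ± 0.36 (adjusted p = 0.0456)) lost it without any 1 library other than unfed 10 dpf (experiment 1), fed 16 dpf (experiment 2), unfed 10 dpf (experiment 2) and unfed 16 dpf (experiment 2) (adjusted p up to 0.115). gstcd.L, which has only a related C-terminal domain, stood at 0.86 ± 0.25 (adjusted p = 0.0148) and lost the call without unfed 13 dpf (experiment 1), fed 10 dpf (experiment 2) or without unfed 13 dpf (experiment 2) (adjusted p up to 0.0699). With the length trend taken out gstk1.L was at 0.34 (adjusted p = 0.193), gsta1.L at 0.42 (adjusted p = 0.142) and gsto1.S at 0.68 (adjusted p = 0.124), none of them called. A second omega gene, LOC108696140, was abundant and not called, at 348 ± 80.9 CPM in the fed and 302 ± 61.6 CPM in the unfed libraries and 0.23 ± 0.21 (adjusted p = 0.399).

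Of the 5 tested microsomal transferases, membrane enzymes of another fold, 1 was called higher, where 24.8% of all tested genes were. mgst1.L, also active on lipid peroxides in mammals, was at 529, 352, 528, 626 and 558 CPM in the fed libraries, against 275, 241, 242, 230.0 and 153 CPM in the unfed libraries. No library overlapped between the groups and the log2 fold change was 1.2 ± 0.21 (adjusted p = 0.000857). mgst3.S was at 0.43 ± 0.18 (adjusted p = 0.0692), and the 3 mgst2-type genes had log2 fold changes of 0.05 to 0.32 without a call. mgst2.L and LOC108699671 overlap in the gene table, so their reads are uncertain.

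All 3 genes of glutamate-cysteine ligase, the first and rate-limiting enzyme of glutathione synthesis, were called higher. The catalytic subunit gclc.L was at 52.9, 66.0, 66.1, 61.6 and 42.1 CPM in the fed libraries, against 29.4, 24.7, 26.5, 28.4 and 22.6 CPM in the unfed libraries. Its groups did not overlap and the log2 fold change was 1.12 ± 0.13 (adjusted p = 6.53e-05). The modifier subunit gclm.L was at 74.7, 100.1, 87.7, 72.2 and 47.0 CPM in the fed libraries, against 34.3, 34.5, 30.8, 51.1 and 45.4 CPM in the unfed libraries. It was nearly level between fed and unfed at 16 dpf. The groups overlapped, as the unfed 13 dpf library of experiment 2 lay above the fed 16 dpf library. Its log2 fold change was 0.95 ± 0.21 (adjusted p = 0.00345). The other catalytic copy gclc.S was at 51.6, 72.6, 46.5, 41.1 and 46.7 CPM in the fed libraries, against 46.2, 48.4, 38.0, 28.4 and 31.2 CPM in the unfed libraries. Its smaller log2 fold change of 0.43 ± 0.14 (adjusted p = 0.0258) lost its call without any 1 library other than fed 10 dpf (experiment 1), fed 13 dpf (experiment 2) and unfed 10 dpf (experiment 2) (adjusted p up to 0.106). Glutathione reductase, gsr.L, was at 59.0, 62.5, 74.9, 60.8 and 66.8 CPM in the fed libraries, against 34.0, 36.1, 44.3, 53.1 and 55.3 CPM in the unfed libraries. The highest unfed library lay just below the lowest fed one, and the log2 fold change was 0.56 ± 0.14 (adjusted p = 0.00585).

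**Figure D3:**
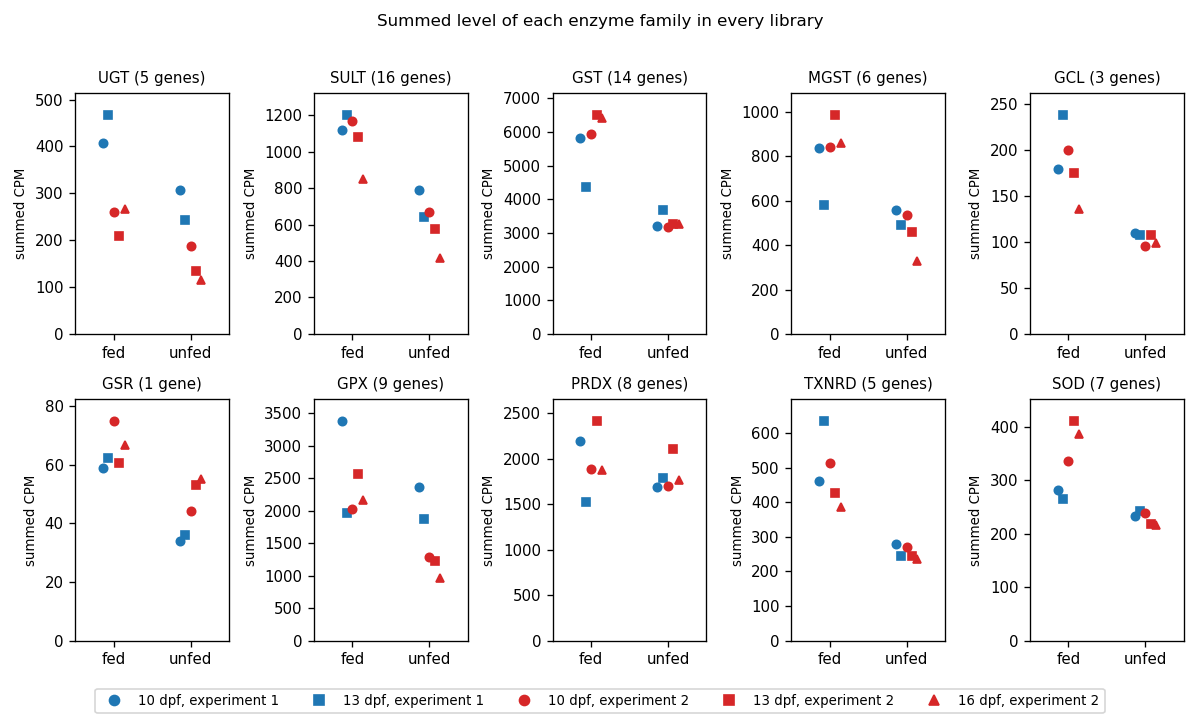
Summed CPM (y axis, from 0) over all members of each family in the 5 fed and 5 unfed libraries, with colour for the experiment and shape for the age. The fed sums of SULT, GST, MGST, GCL, GSR, TXNRD and SOD all lie above the unfed sums, while those of UGT, GPX and PRDX overlap.

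Glutathione peroxidases showed 2 calls among 7 tested genes, both higher, with a median of 0.25. That share of higher calls was near the 24.8% of all tested genes. Per length, 90.6% of the family's level was gpx4.L, which reduces lipid peroxides within membranes. It was at 3123, 1821, 1812, 2271 and 1939 CPM in the fed libraries, against 2174, 1658, 1113, 1030.0 and 766 CPM in the unfed libraries. Levels differed between the experiments as well, and the highest unfed library, at 10 dpf of experiment 1, exceeded 3 fed ones. The log2 fold change of 0.79 ± 0.24 (adjusted p = 0.0173) became 0.45 (adjusted p = 0.0648) with the length trend taken out and lost its call without fed 13 dpf (experiment 2), fed 16 dpf (experiment 2), unfed 10 dpf (experiment 2), unfed 13 dpf (experiment 2) or without unfed 16 dpf (experiment 2) (adjusted p up to 0.0727). The copy gpx4.S, at 107 ± 30.7 CPM in the fed and 76.9 ± 6.18 CPM in the unfed libraries, was not called at 0.46 ± 0.19 (adjusted p = 0.0595). gpx1.S, a soluble peroxidase, was at 28.7, 19.0, 29.7, 25.1 and 17.9 CPM in the fed libraries, against 11.7, 13.1, 16.3, 19.9 and 21.1 CPM in the unfed libraries, and was lower in the fed than in the unfed library at 16 dpf. Its call at 0.56 ± 0.19 (adjusted p = 0.0302) was lost without any 1 library other than fed 13 dpf (experiment 1), fed 16 dpf (experiment 2), unfed 13 dpf (experiment 2) and unfed 16 dpf (experiment 2) (adjusted p up to 0.101). It was also lost without the replicate block and with the length trend taken out, at 0.29 (adjusted p = 0.224). The secreted peroxidases gpx3.L and gpx3.S were not called, at -0.06 ± 0.19 (adjusted p = 0.827) and -0.09 ± 0.17 (adjusted p = 0.683), and neither was gpx8.L at -0.44 ± 0.26 (adjusted p = 0.183). With the length trend taken out gpx3.S was called lower at -0.39 (adjusted p = 0.0473) and gpx8.L at -0.74 (adjusted p = 0.0256). The interval of gpx8.L overlaps that of cdc20b.L in the gene table, so its reads are uncertain.

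Peroxiredoxins differed among themselves. Of 8 genes 3 were called higher, 1 lower and 4 not called, with a median of 0.68. Those called higher act in mammals in the endoplasmic reticulum (prdx4), in mitochondria (prdx3) and as the 1-cysteine enzyme that also uses glutathione (prdx6). prdx4.L was at 49.9, 47.1, 64.9, 77.4 and 59.4 CPM in the fed libraries, against 28.7, 26.2, 25.8, 25.6 and 20.8 CPM in the unfed libraries. prdx3.S was at 76.3, 56.5, 80.1, 110.4 and 79.3 CPM in the fed libraries, against 37.4, 38.5, 38.2, 25.9 and 27.5 CPM in the unfed libraries. prdx6.S was at 334, 290.2, 352, 426 and 457 CPM in the fed libraries, against 231, 160.0, 178, 169.6 and 130.0 CPM in the unfed libraries. In each of these genes every fed library was above every unfed one, and the log2 fold changes were 1.22 ± 0.15 (adjusted p = 0.000106), 1.26 ± 0.19 (adjusted p = 0.000382) and 1.1 ± 0.21 (adjusted p = 0.00123). The cytosolic prdx1.S, the most abundant peroxiredoxin per length, was not called. It was at 1393, 858, 961, 1304 and 927 CPM in the fed libraries, against 1167, 1330.3, 1123, 1254 and 1024 CPM in the unfed libraries, at a log2 fold change of -0.12 ± 0.2 (adjusted p = 0.665). With the length trend taken out it was called lower, at -0.45 (adjusted p = 0.0325).

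Of the prdx5 genes the S copy was called lower and the L copy was not called. prdx5.S was at a log2 fold change of -0.37 ± 0.14 (adjusted p = 0.0417), with 38.0, 37.2, 68.0, 58.1 and 68.1 CPM in the fed libraries, against 39.2, 44.4, 88.8, 104 and 86.3 CPM in the unfed libraries. Each fed library was below its unfed partner, by least at 10 dpf of experiment 1. The call was lost without any 1 library other than fed 10 dpf (experiment 1) and unfed 10 dpf (experiment 1) (adjusted p up to 0.136). prdx5.L was at 152, 96.5, 156, 211 and 117 CPM in the fed libraries, against 76.0, 104, 103, 331 and 309.5 CPM in the unfed libraries, so that unfed libraries were low in experiment 1 and high at 13 and 16 dpf of experiment 2. Its log2 fold change was -0.12 ± 0.37 (adjusted p = 0.812). prdx2.L averaged 44.0 ± 21.3 CPM in the fed and 21.1 ± 10.1 CPM in the unfed libraries and was not called at 1.1 ± 0.41 (adjusted p = 0.0573).

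All 5 thioredoxin reductase genes were called higher, with a median of 1.04. The summed level was 485 ± 96.1 CPM in the fed and 256 ± 18.8 CPM in the unfed libraries, and every fed library was above every unfed one. The gene described as thioredoxin reductase 1, cytoplasmic-like (1) was at 63.5, 61.3, 52.5, 60.9 and 82.5 CPM in the fed libraries, against 18.9, 12.8, 16.7, 9.49 and 4.31 CPM in the unfed libraries. Fed libraries kept close to each other while the unfed values were smallest at 16 dpf, and the groups were far apart. Its log2 fold change was 2.46 ± 0.34 (adjusted p = 0.00054). A second gene of that description (2) was at 22.3, 27.6, 24.5, 16.4 and 21.8 CPM in the fed libraries, against 10.0, 7.78, 8.16, 7.72 and 12.5 CPM in the unfed libraries, again without overlap, at 1.3 ± 0.17 (adjusted p = 0.000124). The mitochondrial enzyme's gene, thioredoxin reductase 2 S homeolog, was at 32.6, 42.7, 39.7, 38.7 and 30.8 CPM in the fed libraries, against 21.1, 19.9, 18.4, 14.9 and 15.5 CPM in the unfed libraries. It did not overlap either, and its log2 fold change was 1.04 ± 0.14 (adjusted p = 0.000143). txnrd3.L, whose enzyme in mammals also acts on glutathione, was the most abundant per length at 135 ± 35.0 in fed and 81.2 ± 4.69 in unfed libraries in CPM per kilobase, at a log2 fold change of 0.71 ± 0.19 (adjusted p = 0.00887). The gene described as thioredoxin reductase 1 L homeolog was at 24.3, 49.7, 37.3, 29.4 and 22.5 CPM in the fed libraries, against 38.0, 23.7, 16.4, 10.4 and 8.24 CPM in the unfed libraries. There the unfed 10 dpf library of experiment 1 exceeded its fed partner, and the call at 0.93 ± 0.3 (adjusted p = 0.0275) was lost without any 1 library other than fed 10 dpf (experiment 1) and unfed 10 dpf (experiment 1) (adjusted p up to 0.0955). The thioredoxin reductase 1 genes are alike and may share reads.

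Genes for superoxide dismutases or their copper chaperone were called higher in 4 of 7 cases and lower in none, with a median of 0.55. The mitochondrial manganese enzyme, LOC108716665, was at 34.3, 26.0, 33.5, 39.5 and 27.1 CPM in the fed libraries, against 17.2, 19.7, 13.0, 16.7 and 14.4 CPM in the unfed libraries. Groups did not overlap, and the log2 fold change was 0.99 ± 0.16 (adjusted p = 0.000432). For the cytosolic copper-zinc enzyme the tables hold 3 rows of similar names, which may share reads. The row superoxide dismutase [Cu-Zn] B held 64.8% of the family's level per length, at 158, 143, 184, 248 and 237 CPM in the fed libraries, against 142, 138, 139.9, 112 and 96.7 CPM in the unfed libraries. It was called at 0.61 ± 0.2 (adjusted p = 0.0267), and the call was lost without fed 13 dpf (experiment 2), fed 16 dpf (experiment 2), unfed 10 dpf (experiment 2), unfed 13 dpf (experiment 2) or without unfed 16 dpf (experiment 2) (adjusted p up to 0.105). With the length trend taken out it was not called, at 0.28 (adjusted p = 0.23). The row superoxide dismutase 1, soluble L homeolog averaged 11.4 ± 2.76 CPM in the fed and 4.7 ± 0.666 CPM in the unfed libraries and was called at 1.26 ± 0.18 (adjusted p = 0.000188). The row superoxide dismutase 1, soluble averaged 50.0 ± 15.2 CPM in the fed and 45.3 ± 8.02 CPM in the unfed libraries and was not called at 0.11 ± 0.15 (adjusted p = 0.593). The copper chaperone ccs.L, which loads copper into the cytosolic enzyme, was higher at 0.55 ± 0.15 (adjusted p = 0.00971), with 44.2 ± 7.13 CPM in the fed and 30.3 ± 4.62 CPM in the unfed libraries.

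The extracellular dismutase genes were low, and neither was called over all ages. At 10 dpf sod3.S was called higher in edgeR's test, at 1.53 ± 0.5 (adjusted p = 0.0482). The interval of sod3.S overlaps that of dhx15.S in the gene table, so its reads are uncertain. sod3.L was at 0.244, 0.825, 2.37, 1.46 and 1.19 CPM in the fed libraries, against 0.187, 0.415, 2.9, 6.51 and 9.67 CPM in the unfed libraries. sod3.S was at 3.17, 2.83, 2.96, 3.46 and 2.52 CPM in the fed libraries, against 0.842, 1.04, 1.32, 3.86 and 9.96 CPM in the unfed libraries. Unfed values of both were largest at 13 and 16 dpf of experiment 2, and the log2 fold changes were -1.32 ± 0.51 (adjusted p = 0.0532) and 0.24 ± 0.52 (adjusted p = 0.729). With the length trend taken out sod3.L was called lower, at -1.55 (adjusted p = 0.0335). Those 2 unfed libraries were also among the 3 with the highest summed leukocyte markers, and the part of leukocytes in these values was not tested. The 2 tested glycan glucuronosyltransferases were both described as galactosylgalactosylxylosylprotein 3-beta-glucuronosyltransferase 1-like. They had log2 fold changes of 0.36 ± 0.32 (adjusted p = 0.387) and 0.27 ± 0.35 (adjusted p = 0.553).

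Xenopus laevis keeps many genes as an .L and an .S copy from an ancient joining of 2 genomes. The symbols used here come from a RefSeq gene table, and for gstm1.S, prdx2.L and some others the deposited description names the opposite copy. Where both copies were members, gclc.L and gclc.S were both called higher but by different amounts, at 1.12 ± 0.13 and 0.43 ± 0.14, from nearly equal levels per length (12.7 and 12.4 CPM per kilobase over all libraries). In prdx6 the S copy was called higher at 1.1 ± 0.21 and the L copy, at 112, 118, 157, 146 and 127 CPM in the fed libraries, against 73.7, 68.5, 112, 170.5 and 158 CPM in the unfed libraries, was not called at 0.26 ± 0.19 (adjusted p = 0.271). In gpx4 the L copy, at 2205 CPM per kilobase over all libraries, was called at 0.79 ± 0.24, and the S copy, at 121 CPM per kilobase, was not called at 0.46 ± 0.19. Differences between copies were not tested.

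At single ages the same direction was seen with fewer libraries. At 10 dpf 21 of 68 members were called higher and 0 lower in edgeR's test, where 11.8% of all genes were called higher and 9.45% lower, and the members' median was 0.56. For the other fits that follow, the share of all genes called is not given. Without the replicate block 8 were called higher, and with the length trend taken out 13 higher and 1 lower. Leaving out 1 of the 4 libraries of that age left 9 higher (without the fed library of experiment 1), 12 (without the unfed library of experiment 1), 3 (without the fed library of experiment 2) or 2 (without the unfed library of experiment 2). The smallest adjusted p among them belonged to thioredoxin reductase 1, cytoplasmic-like (1), at 1.7 ± 0.22 (adjusted p = 0.000731), and ugt1a1.L was at 1.63 ± 0.28 (adjusted p = 0.00269).

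At 13 dpf 21 members were again called higher and 0 lower, where 17.0% of all genes were called higher and 15.0% lower, and the median was 0.53. Here too the share of all genes called in the other fits is not given. Without the replicate block 13 were called higher. Leaving out a library left 11 higher (without the unfed 13 dpf library of experiment 1), 13 (without the fed 13 dpf library of experiment 2) or 8 (without the unfed 13 dpf library of experiment 2), and the lower calls became 2 or 4 without the fed 13 dpf library of experiment 1 or 2. All 5 TXNRD genes were called at this age, with thioredoxin reductase 1, cytoplasmic-like (1) at 2.47 ± 0.22 (adjusted p = 7.97e-05). The 2 ages shared 16 called members. Both comparisons came from the same fit, and the share of all genes called at both ages is not given.

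Whether the feeding effect differed between 13 and 10 dpf was tested directly. No member was called in edgeR's test of that difference, where 0.00% of all genes were, and DESeq2 called 0 members and 22 genes in all. At an unadjusted p below 0.05 there were 5 members (7.35%), where 5.20% of all genes passed. One of them was LOC108711396, whose feeding effect was 0.08 ± 0.32 (adjusted p = 0.884) at 10 dpf and 1.62 ± 0.33 (adjusted p = 0.00476) at 13 dpf, a 13 minus 10 dpf difference of 1.54 ± 0.46 (adjusted p = 0.751). Thioredoxin reductase 1, cytoplasmic-like (1) was another, with a difference of 0.77 ± 0.3 (adjusted p = 0.911).

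No member was called for age. The age tests, like the tests at single ages, used the age in the title. The age of the stage field was tried only for feeding over all ages. Between 13 and 10 dpf in unfed intestines no member was called by edgeR or DESeq2, where edgeR called 0.0126% of all genes, and 4 members passed an unadjusted p of 0.05, where 6.25% of all genes did. These were gsto2.L at 1.68 ± 0.39 (adjusted p = 0.374), prdx5.L at 1.11 ± 0.37 (adjusted p = 0.615), thioredoxin reductase 1, cytoplasmic-like (1) at -0.68 ± 0.22 (adjusted p = 0.594) and LOC108711396 at -0.95 ± 0.33 (adjusted p = 0.657). In fed intestines no member was called by either tool, where edgeR called 0.00% of all genes, and 0 members passed the unadjusted threshold, where 1.91% of all genes did.

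No test was made at 16 dpf, where the comparison is of 1 fed with 1 unfed library. Of 68 members 26 had a log2 ratio of 1 or more and 4 of -1 or less, where 11% and 14.9% of all tested genes did, and the median ratio was 0.83. The largest ratio was that of thioredoxin reductase 1, cytoplasmic-like (1), at 4.19, followed by prdx2.L at 2.52 and sult1e1.L at 2.3. Ratios of -1 or less were found for sod3.L (-2.81), sod3.S (-1.89), prdx5.L (-1.4) and gsto2.L (-1.1). The 3 positive examples were chosen after their values were seen.

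Across the 5 pairs of libraries the members' median log2 ratio was 0.53 at 10 dpf and 0.48 at 13 dpf of experiment 1, and 0.52, 0.71 and 0.83 at 10, 13 and 16 dpf of experiment 2. All 5 lay above the median over all genes, which was -0.03 to -0.01. The test of the feeding effect in experiment 2 against experiment 1 called no member in edgeR or DESeq2, where edgeR called 0.00% of all genes and DESeq2 107 genes. Only experiment 2 has libraries of 16 dpf, so this test cannot separate the experiment from that age. At an unadjusted p below 0.05 there were 10 members (14.7%), where 6.78% of all genes passed. The difference was positive for 6 of these, among them prdx2.L at 1.62 ± 0.54 (adjusted p = 0.603) and sult1e1.L at 1.5 ± 0.55 (adjusted p = 0.648). In both genes the 16 dpf pair had the largest log2 ratio of the 5 pairs, at 2.52 and 2.3. The difference was negative for gstp1.L at -1.26 ± 0.52 (adjusted p = 0.687), prdx6.L, sod3.L and sod3.S.

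**Figure D4:**
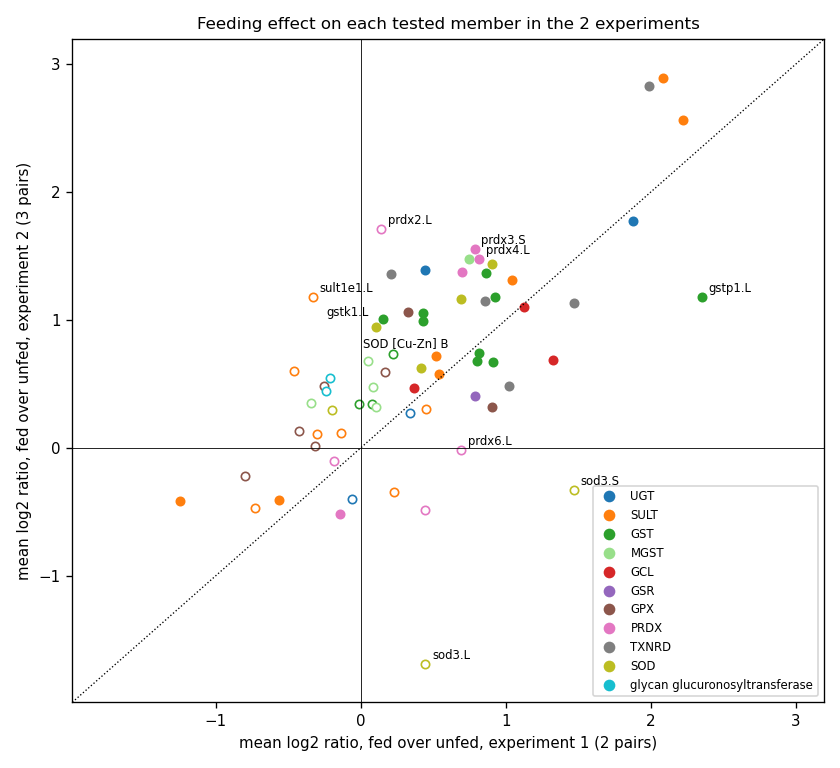
Mean log2 ratio, fed over unfed, of each tested member over the 3 pairs of experiment 2 (y axis) and the 2 pairs of experiment 1 (x axis), coloured by family, with filled points for members called over all ages. Most points lie in the upper right part, and the 10 named genes are those with an unadjusted p below 0.05 for the difference between experiments.

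Genes that supply, regulate or follow on from these enzymes were taken from a separate list of 109 genes in 6 groups, which was written with earlier results of these data known. Of 105 tested, 48 were called higher and 16 lower over all ages, with a median of 0.35, where 24.8% of all tested genes were called higher and 25.1% lower. As shares of the list these were 45.7% higher and 15.2% lower. The groups are described by their counts, and differences between them were not tested. Of 29 suppliers of cofactors 17 were called higher (58.6%) and 1 lower, with a median of 0.60. papss2.S, which makes the sulfate donor PAPS, averaged 151 ± 59.0 CPM in the fed and 30.1 ± 12.8 CPM in the unfed libraries, a log2 fold change of 2.37 ± 0.25 (adjusted p = 5.36e-05). idh1.L, a source of NADPH in the cytosol, averaged 605 ± 113 CPM in the fed and 199 ± 96.2 CPM in the unfed libraries, at 1.72 ± 0.21 (adjusted p = 8.66e-05). The 1 lower gene was tkt.S, a transketolase copy of the pentose phosphate pathway, at -1.1 ± 0.17 (adjusted p = 0.00034). It averaged 17.1 ± 7.43 CPM in the fed and 38.9 ± 21.0 CPM in the unfed libraries. The more abundant copy tkt.L averaged 91.7 ± 34.8 CPM in the fed and 98.5 ± 27.6 CPM in the unfed libraries. tkt.L was not called, at -0.14 ± 0.17 (adjusted p = 0.53).

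Of 9 genes listed as exporters of conjugates 3 were called higher and 1 lower, with a group median of -0.01. As shares these were 33.3% higher and 11.1% lower, beside 24.8% and 25.1% of all genes. Of the 9, slco2b1.S and slco2b1.L belong to a family of uptake carriers and are not exporters. Neither was called, at -0.26 ± 0.17 (adjusted p = 0.242) and -0.27 ± 0.35 (adjusted p = 0.55). abcg2.L averaged 515 ± 196 CPM in the fed and 178 ± 79.0 CPM in the unfed libraries at 1.6 ± 0.24 (adjusted p = 0.000296), abcg2.S stood at 1.08 ± 0.21 (adjusted p = 0.00175) and abcc2.L at 0.9 ± 0.26 (adjusted p = 0.0171). The lower gene was abcb1.L, a multidrug exporter named after its values were seen, which averaged 1104 ± 409.9 CPM in the fed and 1935 ± 494 CPM in the unfed libraries at -0.86 ± 0.28 (adjusted p = 0.0251). Of 17 partners of thioredoxin and glutaredoxin 10 were called higher, with a median of 0.54, and the 3 genes of smallest p were among the 4 called lower. txnip.L, whose protein binds and inhibits thioredoxin, averaged 24.4 ± 3.85 CPM in the fed and 121 ± 29.0 CPM in the unfed libraries at -2.28 ± 0.19 (adjusted p = 1.05e-05), and txnip.S was at -1.82 ± 0.22 (adjusted p = 9.53e-05). The sestrin gene sesn1.L was at -2.02 ± 0.16 (adjusted p = 7.7e-06). Of 27 other antioxidant and detoxifying enzymes 14 were called higher and 5 lower, with glo1.S (methylglyoxal removal) at 1.44 ± 0.17 (adjusted p = 7.31e-05), akr1b1.S (aldehyde reduction) at 1.11 ± 0.17 (adjusted p = 0.000296) and hmox1.S (heme breakdown) at -1.81 ± 0.25 (adjusted p = 0.000233).

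Of 19 regulators and sensors 2 were called higher and 5 lower, or 10.5% higher and 26.3% lower, so that the lower share was near that of all genes, and the median was -0.19, beside -0.03 over all genes. The gene nr1i2.S, whose mammalian counterpart is a xenobiotic receptor, averaged 11.2 ± 2.08 CPM in the fed and 3.9 ± 0.657 CPM in the unfed libraries at 1.53 ± 0.17 (adjusted p = 4.64e-05). Its other copy nr1i2.L averaged 4.85 ± 0.881 CPM in the fed and 6.52 ± 1.07 CPM in the unfed libraries. It was not called, at -0.41 ± 0.19 (adjusted p = 0.0898). The small Maf genes maff.L and maff.S were at -1.37 ± 0.13 (adjusted p = 2.43e-05) and -1.18 ± 0.14 (adjusted p = 6.67e-05). The mRNAs of nfe2l2, whose protein binds antioxidant response elements with small Maf partners in mammals, were not called, at 0.09 ± 0.15 (adjusted p = 0.654) for nfe2l2.L and -0.24 ± 0.15 (adjusted p = 0.205) for nfe2l2.S, which were looked up apart from the rule for naming genes. Of 4 genes of selenoprotein synthesis, which TXNRD and several GPX enzymes need, eefsec.S and sepsecs.L were called higher at 0.76 ± 0.19 (adjusted p = 0.00667) and 0.55 ± 0.19 (adjusted p = 0.0316).

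**Figure D5:**
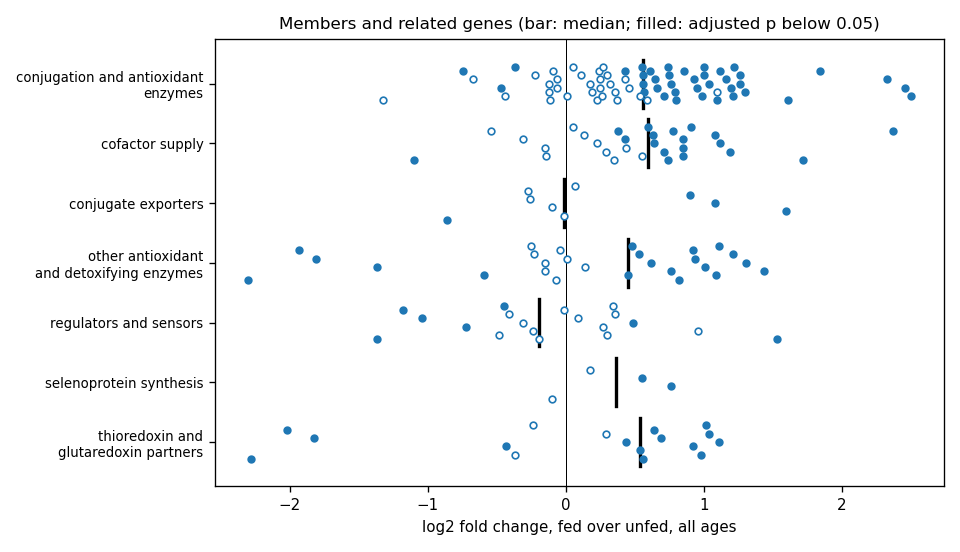
Log2 fold change, fed over unfed over all ages (x axis), of the 68 tested members (top row) and of the 105 tested genes of the 6 related groups (rows below), with filled points for genes called and a bar for the median of each row. The medians are 0.56 for the members, 0.60 for cofactor supply and -0.19 for regulators and sensors.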

How the data were processed

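Per the submitters' processing notes, reads were aligned with HISAT2 and counted with featureCounts. Not given in the sources used here were the versions, the genome build, strandedness and the treatment of multiply matching reads. Raw counts per transcript (63876 rows) were deposited, which the authors did not normalize. Per the file headers the tables also give each transcript's length in bases. The 10 RPKM columns were not used. The fed or unfed state of the experiment 1 columns was read from F and NF in their headers. A gene was its transcript of highest total, named through a RefSeq gene table of Xenopus_laevis_v10.1. Of the 81 members 65 were in that table and 16 kept the deposited description. Another gene overlaps 11 of the members there. Rows with a blank name (0.0738% of counts) and named rows without an accession (0.136%) were left out. Deposited totals were 12664503 to 17967762 counts per library.

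In R 4.3.3, genes were filtered with filterByExpr, scaled by TMM (factors 0.848 to 1.1) and tested with edgeR 4.0.16 (robust quasi-likelihood F test, Benjamini-Hochberg over 23850 genes, threshold 0.05). The model held experiment, age and feeding. Comparisons at 1 age and of ages came from a fit of the 6 groups and the experiment. A feeding by experiment term tested the difference between experiments, of which only experiment 2 has 16 dpf. At 16 dpf log2 CPM ratios used a prior count of 2. The experiment was a block because the labels divide the study into 2 experiments, and over 6 pairs of groups the experiment 2 minus experiment 1 differences of genes correlated at r 0.34 to 0.538 (genes are not independent replicates). Errors are SE for log2 fold changes and SD over 5 libraries (n = 5 per feeding state) for CPM. The SE was derived from the F test, as the size of the log2 fold change over the square root of F. Alternatives were DESeq2 1.42.0, RLE scaling, no filter, no block, summed transcripts, a length trend (lowess span 0.3), the stage field's age, each experiment alone and each library left out. The scripts were tested on simulated data. Named genes were, per family, the 2 highest per length, up to 3 called genes of smallest p and their other copies, and per related group the 3 called genes of smallest p. Members named besides these were added after their values were seen. The members and lists were chosen with earlier results of these data known. Sequences were not used here.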

Additional observations from a re-analysis of the deposited data

Results flagged for a closer look

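Among 110 groups of 5 libraries (55 named genes in each feeding state), 2 held a library that stood far from the other 4 (Dixon's test at 95%). Chance flags about 1 in 20 such groups. Both lie in the unfed 10 dpf library of experiment 1 and in the 2 called 2B member 1-like sulfotransferases, which may share reads. XB986081.L was at 135 CPM there, against 28 to 46.6 CPM in the other unfed libraries. The gene known only as sulfotransferase family cytosolic 2B member 1-like was at 27.6 CPM there, against 6.71 to 11.3 CPM in the others. Both genes remained called higher with feeding without any single library, at adjusted p-values of at most 0.00362 and 0.00217.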

How the results depend on the processing

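With the experiment as a block, 35 members were called higher and 3 lower over all ages. For the feeding counts of the alternative fits below, the share of all genes called is not given. Under RLE scaling, DESeq2, no filter, summed transcripts and the age of the stage field the higher count stayed at 34 to 37 and the lower at 2 or 3. With no replicate block the lower count was 1 over all ages, and the higher count was 8 at 10 dpf and 13 at 13 dpf. The length trend gave 7 lower and a median of 0.32 over all ages, 13 higher, 1 lower and 0.30 at 10 dpf, 2 lower and 0.31 at 13 dpf, and a median of 0.66 at 16 dpf. RLE scaling gave 1 lower at 13 dpf. Within experiment 1 there were 15 higher and 0 lower, where fewer libraries were fitted and none was of 16 dpf. Without 1 library the counts were 26 to 38 higher and 1 to 3 lower over all ages, 2 to 28 higher and 0 to 1 lower at 10 dpf (medians 0.44 to 0.72), and 8 to 26 higher and 0 to 4 lower at 13 dpf (medians 0.39 to 0.73). The members' median for age ran from -0.09 to 0.11 in unfed and from -0.25 to 0.20 in fed libraries, and the test between experiments called 0 to 1 member higher, the 1 without the fed 10 dpf library of experiment 2. Of 38 called members 24 stayed called without any single library. With the relatives outside the rule 42 of 88 tested genes were higher and 4 lower. Without the glycan, chaperone and domain genes 33 of 64 were higher and 3 lower. These counts are from the main fit, where 24.8% of all tested genes were higher and 25.1% lower. Both sets were chosen after seeing the data.

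The sign of some uncalled genes changed, and the cause was not tested. It changed for galactosylgalactosylxylosylprotein 3-beta-glucuronosyltransferase 1-like (1) within experiment 1 (-0.20), and for (2) there (-0.28), with the length trend (-0.04) and without the fed (-0.03) or unfed (-0.02) 16 dpf library, with a range of -0.03 to 0.56 without 1 library. It changed for prdx1.S without the fed 13 dpf library of experiment 1 (0.04, range -0.26 to 0.04), for prdx6.L within experiment 2 (-0.00), and for superoxide dismutase 1, soluble with the length trend (-0.22) and within experiment 1 (-0.20). prdx5.L was at 0.45 within experiment 1 and at 0.02, 0.20, 0.14 and 0.22 without the fed 13 dpf library of experiment 1 or the fed 16, unfed 13 or unfed 16 dpf library of experiment 2 (range -0.45 to 0.22). Depth limits the 13 untested members, which had at most 59 counts in all.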

Other observations

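The naming rule missed 22 genes whose symbol belongs to the same families but whose deposited description does not say so. They were gathered after the data were seen. Of 20 tested, 7 were called higher and 1 lower over all ages in edgeR's test. Among all tested genes 24.8% were called higher and 25.1% lower. The median log2 fold change of the 20 was 0.52. Several of the 22 genes are the other copies of members. The mitochondrial peroxiredoxin copy prdx3.L averaged 142 ± 15.2 CPM in the fed and 71.4 ± 6.57 CPM in the unfed libraries, a log2 fold change of 0.99 ± 0.14 (adjusted p = 0.000186), and prdx4.S was at 0.8 ± 0.15 (adjusted p = 0.00134). The manganese superoxide dismutase gene sod2.S averaged 90.4 ± 11.2 CPM in the fed and 42.9 ± 4.24 CPM in the unfed libraries, at 1.08 ± 0.14 (adjusted p = 0.000113). gpx1.L was at 0.53 ± 0.17 (adjusted p = 0.0201) and mgst3.L at 0.67 ± 0.2 (adjusted p = 0.0166). prdx1.L averaged 678 ± 159 CPM in the fed and 472 ± 71.7 CPM in the unfed libraries and was not called at 0.52 ± 0.21 (adjusted p = 0.0552). sult2a1.S, the other copy of sult2a1.L, was not called, at 0.02 ± 0.14 (adjusted p = 0.934).

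The sulfotransferases outside the rule included 6B1 genes of very different levels, and sult6b1.2.S was not tested, at 0 CPM in the fed and 0.0192 CPM in the unfed libraries. sult6b1.5.S averaged 337 ± 32.7 CPM in the fed and 188 ± 43.1 CPM in the unfed libraries and was called at 0.85 ± 0.18 (adjusted p = 0.0024). sult6b1l.L averaged 562 ± 382 CPM in the fed and 317 ± 104 CPM in the unfed libraries, with a wide spread, and was not called at 0.55 ± 0.59 (adjusted p = 0.471). sult1b1.L was low, at 0.772 ± 0.367 CPM in the fed and 2.0 ± 0.833 CPM in the unfed libraries, and was the 1 gene called lower, at -1.34 ± 0.39 (adjusted p = 0.0137). ugt8.S, whose mammalian counterpart makes galactosylceramide, was called higher at 1.15 ± 0.18 (adjusted p = 0.000413), and its other copy ugt8.L was not called at -0.14 ± 0.15 (adjusted p = 0.484).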
